A study of Capsicum annuum with 6 samples.

Results

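The 150 most abundant LJ_newGene loci of the pepper (Capsicum annuum) first branch site were examined. LJ_newGene is the prefix that the deposited table gives to transcribed loci outside the cv.59 gene identifiers, and such loci carry no gene name in the table. They were selected on level alone, as the loci with the highest mean FPKM over the 6 libraries, so that their high level is a description and not a result. FPKM counts fragments per length of exon and per number of mapped reads. The table lists 3169 LJ_newGene loci among 24829 features, the rest being 21660 cv.59 genes. LJ_newGene_9051, LJ_newGene_9053 and LJ_newGene_9004 were left out by the rule, and none of them was abundant enough to enter the list. The last loci inside the limit were LJ_newGene_2228, LJ_newGene_5473 and LJ_newGene_9134, with mean FPKM of 30.9, 30.9 and 30.8. The first ones outside it were LJ_newGene_150, LJ_newGene_6803 and LJ_newGene_5059, with 30.4, 30.2 and 30.1.

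RNA labelled as polyadenylated came from the place on the stem where the first branches part, at the early flowering stage of 2 accessions. B010 is compact, with a small branch angle, and B003 is loose, with a large one. Each accession had 3 replicates, and tissue of several plants was pooled for each, so that 1 value stands for a pool and not for a plant. The accessions are different pepper genotypes, so a difference between them belongs to the whole genotype as well as to the branch angle. The identity of the tissue was not checked against marker genes, because the table does not pair its identifiers with gene names.

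As background, a genome annotation is a set of gene models, and RNA-seq reads also fall outside it. Programs such as StringTie assemble aligned reads into transcripts, and an assembled transcript that matches no gene model may come from a missed protein-coding gene, a long noncoding RNA, a transposable element or the unannotated end of a nearby gene. What each LJ_newGene locus encodes, where it lies and what its sequence is were not analysed here. Reads shared with a near-identical copy, or with an overlapping gene on either strand, would make a count uncertain, and how the authors treated such reads is not given in the sources used here.

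Counts summed to between 29891192 and 47659515 per library, B010 replicate 1 being the deepest. Each selected locus had enough counts to be tested. Their median was 1839 counts per library, and 5 loci had fewer than 100 counts in at least 1 library. Apart from LJ_newGene_7653, which had none in B010, no locus fell below 12 counts in any library.

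The selected loci took a small and similar part of each library. Their share of all counts was 2.07%, 2.07% and 2.33% in B010 replicates 1, 2 and 3 and 2.46%, 2.24% and 2.32% in B003 replicates 1, 2 and 3. The accessions overlapped, with 2.16% ± 0.15 in B010 and 2.34% ± 0.11 in B003 (SD, n = 3). All LJ_newGene loci together held 5.16% to 6.91% of counts. Within that total, the 150 loci held 33.7% to 37.4% in B010 and 42.4% to 43.3% in B003, so that by this measure the accessions did not overlap. With 3 libraries against 3, the smallest two-sided p of an exact permutation test is 0.1, and no such p was used as a call.

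Levels within the list were very uneven. Mean FPKM ran from 4363 down to 30.8 with a median of 58.4, against a median of 2.68 for the other LJ_newGene loci and 10.7 for cv.59 genes. Only 2 loci exceeded 1000 FPKM, 40 reached 100, and 78 lay under 60. The most abundant pair alone held 33.7% to 42.7% of the summed FPKM of the list.

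LJ_newGene_2348 was the most abundant, and the second most abundant of all 24829 features. Its FPKM was 4244, 4378 and 5294 in B010 and 4450, 3668 and 4143 in B003. Those ranges overlapped, and the edgeR quasi-likelihood test gave a log2 fold change of B010 over B003 of 0.16 (SE 0.20, adjusted p = 0.543). LJ_newGene_5456 came next, the third of all features. It had 2973, 2722 and 3912 FPKM in B010 and 4049, 3918 and 3890 in B003. The B003 libraries lay close together, B010 replicate 3 fell within their FPKM range, and the difference did not pass the test (log2 fold change -0.33, SE 0.19, edgeR adjusted p = 0.196). LJ_newGene_2348 stood above LJ_newGene_5456 in 5 of 6 libraries, and their ranges overlapped in B003.

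The step to the next locus was clear in every library. LJ_newGene_4106 reached 574, 531 and 1020 FPKM in B010 and 1220, 1119 and 1291 in B003. All B003 libraries were above all B010 libraries, although B010 replicate 3 stood near the B003 range. Its log2 fold change of -0.82 (SE 0.25) had an edgeR adjusted p of 0.0427 and stayed under the limit of 1 that was also required for a call. LJ_newGene_5107 measured 607, 810.4 and 578 FPKM in B010 and 979.8, 487 and 661 in B003, a wide spread within B003 that covered the whole B010 range. It overlapped LJ_newGene_4106 in B010 but not in B003. LJ_newGene_7670 was one of the steadiest, at 525, 494 and 537 FPKM in B010 and 444.5, 409 and 415 in B003. Its libraries did not overlap, yet its log2 fold change of 0.28 (SE 0.13) did not pass the test (edgeR adjusted p = 0.131).

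The next 5 loci by level differed more between the accessions. LJ_newGene_9255 had 232, 183 and 202 FPKM in B010 and 462, 382 and 379.9 in B003, and its log2 fold change was -1.001 (SE 0.16, edgeR adjusted p = 0.00694). It sat on the fold limit, and its call was lost when B010 replicate 2, B010 replicate 3 or B003 replicate 1 was left out, and with DESeq2 or limma, whose values were just short of 1. LJ_newGene_1618 lay just short of the same limit, at 194, 176 and 220.4 FPKM in B010 and 354, 394 and 400.1 in B003, and its log2 fold change was -0.99 (SE 0.14, edgeR adjusted p = 0.00485). These loci thus had about the same difference, and the fold limit alone separated them. LJ_newGene_6287 was higher in B010, with 335, 286.5 and 419 FPKM against 259.8, 189 and 186 in B003 (log2 fold change 0.69, SE 0.17, edgeR adjusted p = 0.0241), also under the limit. LJ_newGene_1673 and LJ_newGene_1105, the other 2 of the 10 most abundant, were called and are described with their directions.

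**Figure D1:**
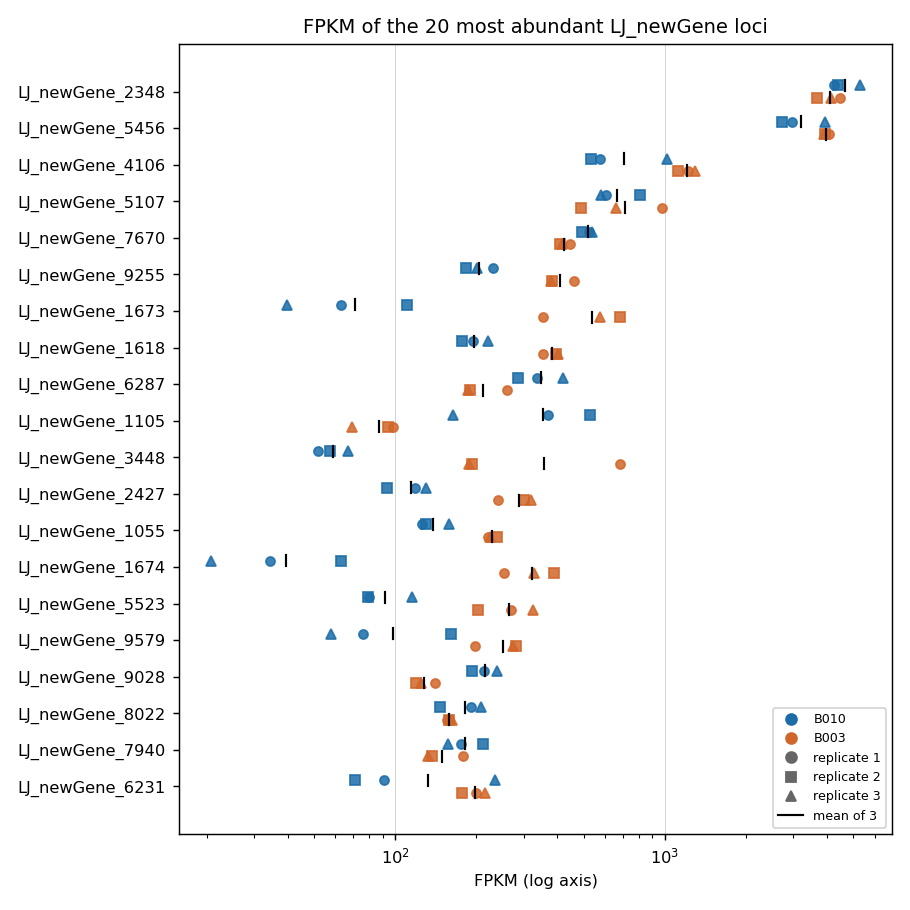
FPKM on a log axis of the 20 most abundant LJ_newGene loci, from the highest mean at the top. Blue points are B010 libraries and orange points B003 libraries, marker shapes are replicates 1 to 3, and black bars are the mean of 3. LJ_newGene_2348 and LJ_newGene_5456 stand apart at 2722 to 5294 FPKM, and LJ_newGene_1673 and LJ_newGene_1674 show the widest gaps between accessions.

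The order of neighbours in level was mostly not fixed across libraries. LJ_newGene_5456 exceeded LJ_newGene_4106, and LJ_newGene_5107 exceeded LJ_newGene_7670, in 6 of 6 libraries. For 5 neighbouring pairs the order of the accession means turned between B010 and B003, namely LJ_newGene_9255 and LJ_newGene_1673, LJ_newGene_1673 and LJ_newGene_1618, LJ_newGene_1618 and LJ_newGene_6287, LJ_newGene_6287 and LJ_newGene_1105, and LJ_newGene_1105 and LJ_newGene_3448, the eleventh locus. A list of the 150 most abundant LJ_newGene loci drawn from B010 alone shared 119 loci with one drawn from B003 alone, which is 79.3% of each. Of the 150 loci described here, 118 were in both of those lists, 14 in the B010 list only and 18 in the B003 list only.

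Of the 150 loci, 35 (23.3%) were called different between the accessions, which required an edgeR adjusted p up to 0.05 over all features tested and a log2 fold change of 1 or more in either direction. Over all 24738 features tested, 25.3% were called by the same rule, so the share among the abundant loci was near the background. By direction, 10 loci (6.67%) were higher in B010 and 25 (16.7%) in B003, where the background was 12.5% and 12.8%. The accession comparison shares its values with the mean that chose the loci, and a locus can enter the list through 1 accession alone, so these counts describe the list and carry no test of their own. Leaving out 1 library at a time moved the total between 23 (without B010 replicate 1) and 42 (without B010 replicate 3, or without B003 replicate 1). The loci higher in B010 then numbered 3 to 13 and those higher in B003 19 to 29. With B010 replicate 1 left out, 15.3% of the loci and 14.6% of all features were called. The shares were 28.0% and 28.1% without B010 replicate 3, and 28.0% and 27.5% without B003 replicate 1. Calls were thus lost or gained over the whole comparison and not in these loci alone.

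Most of the differences were small. Without the fold limit, 73 loci passed an edgeR adjusted p of 0.05, 17 higher in B010 and 56 in B003, against a background of 38.8%, 18.6% and 20.2% for the total and each direction. Of these 73, 38 stayed under the limit of 1, 31 of them higher in B003. For a log2 fold change of 2 or more in either direction there were 14 loci, 5 higher in B010 and 9 in B003, where the background was 13.1%. Not passing the test does not show that the other 77 loci had equal levels.

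The loci leaned to B003 by sign as well. The log2 fold change was negative, that is, higher in B003, in 100 loci and positive in 50, with a median of -0.31. The median was 0.01 over all features tested and -0.07 over cv.59 genes of similar level. With other scaling factors the median of the loci stayed at -0.31 to -0.32 and 99 to 101 loci were negative. The size of the differences was near that elsewhere, with a median absolute log2 fold change of 0.62 in the loci, 0.57 over all features and 0.61 in cv.59 genes of similar level. Libraries of the accessions did not overlap in CPM (counts scaled to a library of 1000000 after TMM) in 98 loci (65.3%). Of these 98, 23 leaned to B010 and 75 to B003, and all 35 called loci were among them. The same share was 58.4% for cv.59 genes of similar level and 54.4% over all features tested. Neither of these backgrounds was split by direction. The Wald test of DESeq2 with the same limits called 40 loci, 14 higher in B010 and 26 in B003, where its background was 29.3%.

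**Figure D2:**
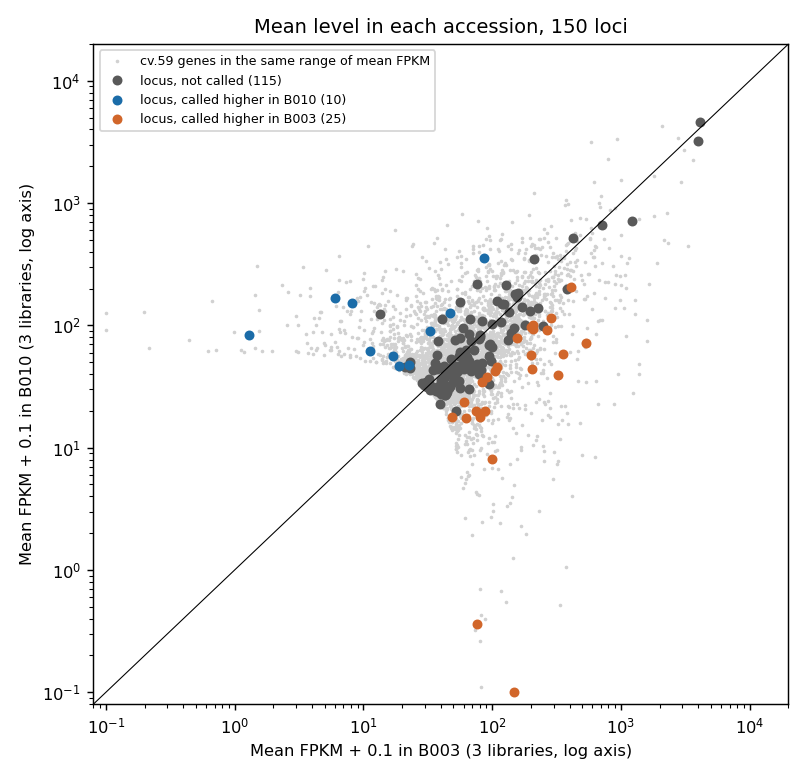
Mean FPKM plus 0.1 in B003 (horizontal) and in B010 (vertical), both on log axes, for the 150 loci and, as small grey points, the 4088 cv.59 genes of similar mean FPKM. Blue marks the 10 loci called toward B010, orange the 25 called toward B003, and the diagonal marks equal means. Most loci lie along the diagonal, with more orange than blue points away from it.

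Comparison with cv.59 genes placed in the same range of mean FPKM used 4088 genes. Of these, 1042 (25.5%) were called, 482 (11.8%) higher in B010 and 560 (13.7%) in B003. The other LJ_newGene loci, which are much less abundant, had 1018 of 2997 called (34.0%), and their direction was the opposite one, with 618 (20.6%) higher in B010 and 400 (13.3%) in B003. The abundant loci had more calls toward B003 and the less abundant ones more toward B010. These differences between sets were not tested. The direction also went with the ranking: the 150 first loci by mean CPM, which does not divide by length, had 25 called higher in B010 and 17 in B003.

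Among called loci, the lean to B003 was widest at the top of the list and was also seen in 1 range below it. Among the 38 loci with a mean FPKM of 106 or more, 13 (34.2%) were called, 1 higher in B010 (2.63%) and 12 in B003 (31.6%). The 886 cv.59 genes in this range had 15.6% higher in B010 and 21.7% in B003. The median log2 fold change in that range was -0.66 for the loci and -0.18 for the cv.59 genes. Among the 38 loci of the lowest range, 30.8 to 39.2 FPKM, 4 leaned to B010 and 2 to B003 among those called, and the total of 15.8% was close to the 17.5% of 1030 cv.59 genes. From 39.2 to 58.4 FPKM, 1 of 37 loci was called higher in B010 (2.7%) and 6 in B003 (16.2%), against 9.24% and 11.6% of cv.59 genes, and the median log2 fold change was -0.37. From 58.4 to 106 FPKM the directions of the calls were nearly even. There, 4 of 37 loci were higher in B010 (10.8%) and 5 in B003 (13.5%), against 14.4% and 14.1% of cv.59 genes. The median log2 fold change of the loci was negative in every range. It was -0.22 in the lowest range and -0.21 from 58.4 to 106 FPKM, against -0.02 and -0.08 for cv.59 genes. With 37 or 38 loci in a range, 1 locus moves these shares by more than 2 percentage points.

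**Figure D3:**
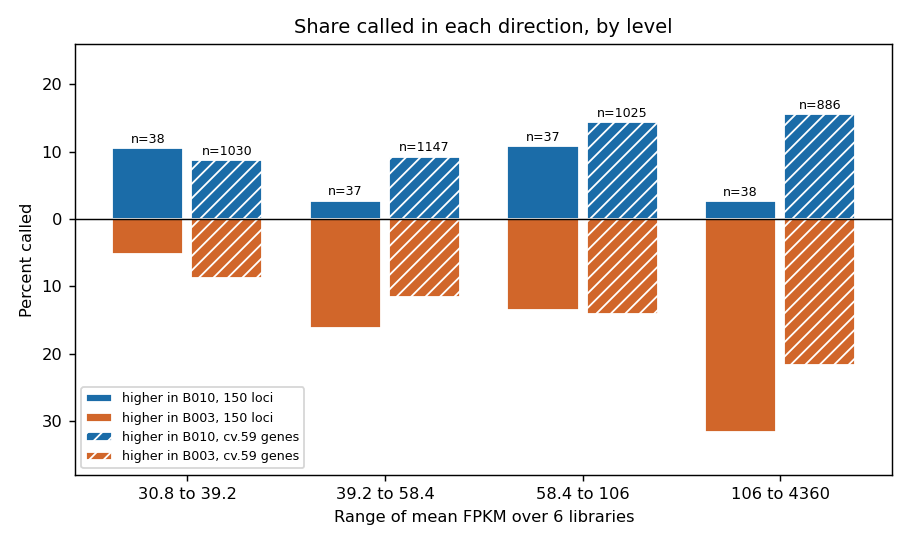
Percent of loci (plain bars) and of cv.59 genes (hatched bars) called in each direction (blue and upward, higher in B010; orange and downward, higher in B003) in 4 ranges of mean FPKM, with the number of loci or genes in each. From 106 FPKM upward, the share toward B003 was 31.6% of loci and 21.7% of cv.59 genes, and the share toward B010 2.63% and 15.6%.

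Part of the calls came from loci that were abundant in 1 accession. In 114 of the 150 loci, the mean FPKM of each accession reached that of the last locus in the list, and 19 of these were called, 3 higher in B010 and 16 in B003. The other 36 reached it in 1 accession only, 22 in B003 and 14 in B010, and 16 of them were called. For these 36 a difference is partly given by the selection. Over all features tested 25.3% were called, 12.5% higher in B010 and 12.8% in B003. The share called was lower than this total among the 114 loci and higher among the 36. Among the called loci named below, LJ_newGene_7653, LJ_newGene_645, LJ_newGene_3111, LJ_newGene_8118, LJ_newGene_2394, LJ_newGene_1615, LJ_newGene_5608 and LJ_newGene_3663 reached the level of the last locus in B003 only. LJ_newGene_439, LJ_newGene_1378, LJ_newGene_4550, LJ_newGene_2572, LJ_newGene_7275, LJ_newGene_1421 and LJ_newGene_2291 reached it in B010 only.

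LJ_newGene_7653 was the single locus detected in 1 accession only, taken as at least 10 counts in each of its libraries and at most 3 in each of the other accession. It had 0 counts in all 3 B010 libraries and 3363, 3487 and 3425 counts in B003, or 132, 156 and 156 FPKM. Set against the 3 counts per library that a count of 0 allows, it was at least 1190-fold higher in B003 (edgeR adjusted p = 0.000847). The call held with each library left out. Detection in 1 accession only, which needs no more than 10 counts per library, was rare at this abundance. Of the 4088 cv.59 genes of similar level, the rule found 3 in B010 only and 1 in B003 only. Among the 3016 other LJ_newGene loci, which are much less abundant, it found 182 and 142.

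LJ_newGene_645 came close to the same pattern but depended on the library. Its counts were 23, 12 and 16 in B010 and 93, 5414 and 7655 in B003, and its FPKM 0.31, 0.17 and 0.31 in B010 and 1.32, 95.4 and 133 in B003. B003 replicate 1 was far below the other B003 libraries and still above all of B010. The log2 fold change of -8.24 (SE 1.73) had an edgeR adjusted p of 0.0151. It did not pass without B010 replicate 1 or without B010 replicate 2, where the highest edgeR adjusted p was 0.0675, nor with limma on log2(FPKM + 1), where the adjusted p was 0.0533.

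Among loci higher in B003, those with the smallest p after LJ_newGene_7653 had moderate differences. A small p favours loci with close replicates, so close replicates among them follow partly from the pick. LJ_newGene_2393 had 51.4, 50.5 and 70.6 FPKM in B010 and 206, 198.5 and 192 in B003, and its log2 fold change was -1.81 (SE 0.13, edgeR adjusted p = 0.000883). For LJ_newGene_9424 the values were 33.2, 30.04 and 40.1 FPKM in B010 and 83.8, 77.7 and 86.2 in B003 (log2 fold change -1.29, SE 0.11, edgeR adjusted p = 0.00127). Both were between 2 and 4 times higher in B003, with the replicates of each accession close together. LJ_newGene_3111 measured 17.0, 15.9 and 20.1 FPKM in B010 and 60.1, 38.4 and 48.1 in B003 (log2 fold change -1.48, SE 0.15, edgeR adjusted p = 0.00197). LJ_newGene_8118 was nearly constant in B010 (22.8, 23.2 and 24.9 FPKM) but reached 73.7, 55.5 and 51.8 in B003 (log2 fold change -1.36, SE 0.14, edgeR adjusted p = 0.00205). LJ_newGene_2394 had 18.3, 13.1 and 28.1 FPKM in B010 and 72.8, 72.4 and 77.5 in B003 (log2 fold change -1.96, SE 0.22, edgeR adjusted p = 0.00252). These 5 loci kept their call with every library left out in turn. LJ_newGene_3111, LJ_newGene_8118 and LJ_newGene_2394 are in the list through B003, so their difference is partly given by the selection.

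LJ_newGene_1673 and LJ_newGene_4107 had larger differences toward B003 and wider replicates. LJ_newGene_1673, the seventh of the list, had 62.9, 111 and 39.9 FPKM in B010 and 353, 680.1 and 577 in B003. The lowest B003 library was still more than 3 times the highest B010 library, and the log2 fold change was -2.89 (SE 0.54, edgeR adjusted p = 0.0107). The call was lost without B010 replicate 1, where the edgeR adjusted p was 0.0536. LJ_newGene_4107 had 30.8, 43.3 and 56.7 FPKM in B010 and 139, 366 and 102 in B003, and its log2 fold change was -2.26 (SE 0.55, edgeR adjusted p = 0.0231), a call that was lost without B010 replicate 1 or without B010 replicate 2. The median log2 fold change of the 25 loci called higher in B003 was -1.56, and 16 of them lay between -2 and -1.

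Further loci called higher in B003 are named here after their values were seen. LJ_newGene_3448, the eleventh in level, had 52.0, 57.4 and 66.6 FPKM in B010 and 684.7, 193.5 and 187 in B003, so that B003 replicate 1 was more than 3 times the other B003 libraries while all 3 were above B010. Its call was lost without B010 replicate 1, with an edgeR adjusted p of 0.0646. LJ_newGene_1615 had 6.54, 10.3 and 7.18 FPKM in B010 and 36.5, 141 and 123 in B003. In that locus B003 replicate 1 was instead the lowest of its accession, and the B003 libraries again all lay above B010. LJ_newGene_5608, with 19.7, 27.7 and 12.4 FPKM against 89.0, 90.5 and 86.4, and LJ_newGene_3663, with 16.2, 12.1 and 24.4 against 75.3, 94.3 and 70.8, had log2 fold changes of -2.13 and -2.20. Their B003 levels were the steadier side for LJ_newGene_5608, and the calls of LJ_newGene_5608, LJ_newGene_3663 and LJ_newGene_1615 held without any single library.

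Of the 10 loci higher in B010, 3 had steady replicates, 5 had 1 low library, and 2 were of neither kind. LJ_newGene_3203 was steady, at 95.3, 72.1 and 102 FPKM in B010 and 34.7, 30.5 and 33.9 in B003, and its log2 fold change was 1.37 (SE 0.13, edgeR adjusted p = 0.00172). So was LJ_newGene_8931, at 132, 117 and 130 FPKM in B010 and 58.5, 42.0 and 39.7 in B003 (log2 fold change 1.25, SE 0.20, edgeR adjusted p = 0.00701). LJ_newGene_439 had 49.5, 43.2 and 48.9 FPKM in B010 and 26.8, 20.9 and 19.98 in B003. Its log2 fold change of 1.05 (SE 0.12, edgeR adjusted p = 0.00279) was just over the limit and fell to 0.99 without B003 replicate 3, which ended the call. The replicates of these 3 loci spread less than the accessions differed. LJ_newGene_1378, at 54.1, 38.7 and 76.9 FPKM in B010 against 26.9, 7.71 and 16.04, and LJ_newGene_4550, at 38.3, 58.6 and 41.6 against 28.2, 15.8 and 12.5, are named after their values were seen. Each lost its call when any of 3 or 4 libraries was left out.

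In 5 of the 10, B010 replicate 3 was below 0.5 times both other B010 libraries in CPM. LJ_newGene_2572 had 121, 104 and 23.5 FPKM in B010 and 1.21, 0.75 and 1.60 in B003. Even its low B010 library was more than 10 times any B003 library, the log2 fold change was 6.15 (SE 0.81, edgeR adjusted p = 0.00379), and the call held with every library left out. LJ_newGene_7275 had 166, 255 and 78.0 FPKM in B010 and 14.4, 1.33 and 2.09 in B003 (log2 fold change 4.91, SE 1.09, edgeR adjusted p = 0.0177). LJ_newGene_1421 showed 215, 203.5 and 38.2 FPKM in B010 and 4.54, 15 and 4.76 in B003 (log2 fold change 4.25, SE 0.92, edgeR adjusted p = 0.0168). Both calls were lost without B010 replicate 1 and without B003 replicate 3. LJ_newGene_1105, the tenth in level and the only locus over 106 FPKM called higher in B010, had 370.1, 528 and 164 FPKM in B010 and 98.0, 93.9 and 69.0 in B003. Its log2 fold change was 2.07 (SE 0.50, edgeR adjusted p = 0.0227), and the call was lost in 4 of the 6 fits with a library left out. LJ_newGene_2291 was the last of the 5, named after its values were seen, with 67.9, 84.0 and 34.4 FPKM in B010 and 3.32, 20.8 and 9.63 in B003, and its edgeR adjusted p rose to 0.135 without a single library.

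B010 replicate 3 was the library that stood apart most often. It was below 0.5 times both other B010 libraries in 10 loci, and the log2 fold change of all 10 was positive. It was over 2 times both others in 5 loci, none of which was called. Among cv.59 genes of similar level the same library was below 0.5 times both others in 11.9%. B003 replicate 1 stood apart in 11 loci, 6 high and 5 low, and B010 replicate 1 in 0 loci. B010 replicate 3 also had the highest TMM factor, 1.12, against 0.92 for B010 replicate 2. It held the highest B010 value in 98 of the 150 loci by FPKM and in 47 by scaled CPM. What set this library apart was not tested.

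LJ_newGene_4083 was the clearest case of a difference carried by part of the replicates. It had 177, 188 and 7.04 FPKM in B010 and 7.80, 28.8 and 3.50 in B003. B010 replicate 3 was thus within the B003 range, and the log2 fold change of 3.25 (SE 1.35) did not pass the test (edgeR adjusted p = 0.103), though it passed with DESeq2 (adjusted p = 0.0101). In LJ_newGene_9583, B010 replicate 2 was the odd library, with 11.8, 41.3 and 6.81 FPKM in B010 and 38.4, 63.1 and 54.4 in B003. In LJ_newGene_5097 the spread was in B003, with 48.4, 10.9 and 3.77 FPKM, while B010 had 45.8, 33.7 and 57.5. In scaled CPM its B003 spread was narrower, at 134.1, 46.5 and 17.9, against 132.6, 132.9 and 148.5 in B010. Neither passed the test, with edgeR adjusted p of 0.186 for LJ_newGene_9583 and 0.251 for LJ_newGene_5097.

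**Figure D4:**
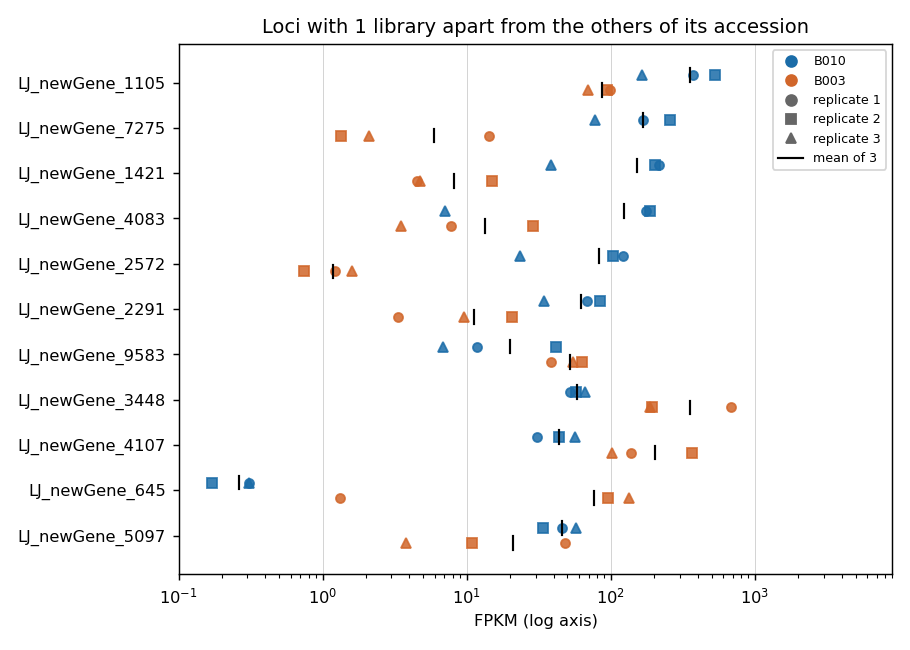
FPKM on a log axis of 11 loci in which 1 library lay far from the others of its accession. Colours and shapes are as in the plot of the 20 most abundant loci. In the upper 6 loci B010 replicate 3 (blue triangle) is the lowest B010 library, and in LJ_newGene_645 B003 replicate 1 (orange circle) is at 1.32 FPKM while the other B003 libraries exceed 95.

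Most loci had replicate spreads near those of other genes of their level. The median coefficient of variation of FPKM among replicates was 14.9% in B010 and 11.5% in B003, against 16% and 17.3% for cv.59 genes of similar level. It exceeded 50% in 17 loci in B010 and in 14 in B003, and was under 10% in 45 and 65. The steadiest loci between accessions among the 50 most abundant were LJ_newGene_593, LJ_newGene_9234, LJ_newGene_689 and LJ_newGene_2321. LJ_newGene_593 had 102, 89.3 and 113 FPKM in B010 and 101, 102 and 96.0 in B003, and its log2 fold change was 0.01 (SE 0.11). LJ_newGene_9234 had 82.5, 69.9 and 88.1 FPKM in B010 and 90.0, 72.2 and 77.1 in B003, and its log2 fold change was -0.01 (SE 0.11). LJ_newGene_689, at 84.7, 69.0 and 97.4 FPKM in B010 and 83.6, 78.5 and 78.3 in B003, and LJ_newGene_2321, at 121, 142 and 123 FPKM in B010 and 151, 131 and 122 in B003, had 0.04 (SE 0.11) and -0.07 (SE 0.17). In all 4 the accessions overlapped, and the difference was smaller than its standard error.

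The loci at the limit of the list differed among themselves. LJ_newGene_2228 had 27.1, 32.1 and 33.7 FPKM in B010 and 35.3, 28.3 and 28.9 in B003, and LJ_newGene_9134 had 30.6, 35.3 and 31.1 in B010 and 24.2, 30.4 and 33 in B003. Both loci overlapped between the accessions. LJ_newGene_5473, with 23.6, 19.6 and 24.5 FPKM in B010 and 37.6, 39.8 and 40.1 in B003, was higher in all B003 libraries (log2 fold change -0.82, SE 0.12, edgeR adjusted p = 0.00507) but under the fold limit.

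The numbers in the identifiers grouped some loci. The list held 7 pairs of consecutive numbers, 14 loci in all, and whether consecutive numbers lie next to each other in the genome is not given in the sources used here. In all 7 pairs both loci were higher in B003 by sign, and in 2 pairs both were called. Over all LJ_newGene loci, 632 of 1147 consecutive pairs (55.1%) had the same sign, in either direction. That set is not limited to abundant loci, and 100 of the 150 loci here were negative, so the counts are not alike. LJ_newGene_1674 followed LJ_newGene_1673 closely, with 34.4, 63.1 and 20.8 FPKM in B010 and 252, 387 and 327 in B003. In both loci replicate 2 was the highest of each accession, B010 replicate 3 was the lowest B010 library and B003 replicate 1 the lowest B003 library. Its log2 fold change was -3.001 (SE 0.53, edgeR adjusted p = 0.00887), close to the -2.89 of LJ_newGene_1673, and its call held with each library left out. The pair LJ_newGene_2393 and LJ_newGene_2394, with -1.81 and -1.96, was the other with both called.

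Other pairs shared a sign but not a size. LJ_newGene_4106 had a log2 fold change of -0.82 and LJ_newGene_4107 one of -2.26, and the highest library was B003 replicate 3 in the first and B003 replicate 2 in the second. LJ_newGene_4143 had 96.4, 75.6 and 109 FPKM in B010 and 175, 202 and 249.6 in B003, and its log2 fold change was -1.19 (SE 0.19, edgeR adjusted p = 0.0068). LJ_newGene_4144 had 65.2, 68.9 and 74.1 FPKM in B010 and 99.7, 90.1 and 92.8 in B003, with -0.45 (SE 0.11, edgeR adjusted p = 0.0246). All libraries of B003 were above those of B010 in both loci, and the call was made for LJ_newGene_4143 only.

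The abundant loci had a short total exon length. It was read back from the values, as CPM over FPKM with the median over the libraries, and is called apparent because the number of mapped reads used by the authors is not in the table. For a few loci, such as LJ_newGene_8704 and LJ_newGene_5097, the ratio also differed between libraries, so it is not a fixed exon length there. The median apparent length was 803 bases in the 150 loci, with quartiles of 729 and 1024, and 110 loci (73.3%) were under 1000 bases. The other LJ_newGene loci had a median of 2169 bases with 16.2% under 1000, and cv.59 genes of similar level had 1497 bases with 27.7% under 1000. Since FPKM divides by length, selection on FPKM favours short loci, so this feature is not independent of how the list was made. Selection on mean CPM gave another list, which shared 70 loci with the first and had a median apparent length of 3256 bases.

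Length went with calls in different ways in the loci and the genes. Of the 110 loci under 1000 bases, 23 (20.9%) were called, 5 higher in B010 and 18 in B003, and of the 40 longer ones 12 (30%) were called. Among cv.59 genes of similar level, 28.4% of those under 1000 bases and 24.4% of longer ones were called. The 24 loci of 1000 to 2000 bases had 4 called higher in B010 and 7 in B003, and of the 16 loci of at least 2000 bases 1 was called, LJ_newGene_3203. These shares rest on few loci, and the differences were not tested.

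**Figure D5:**
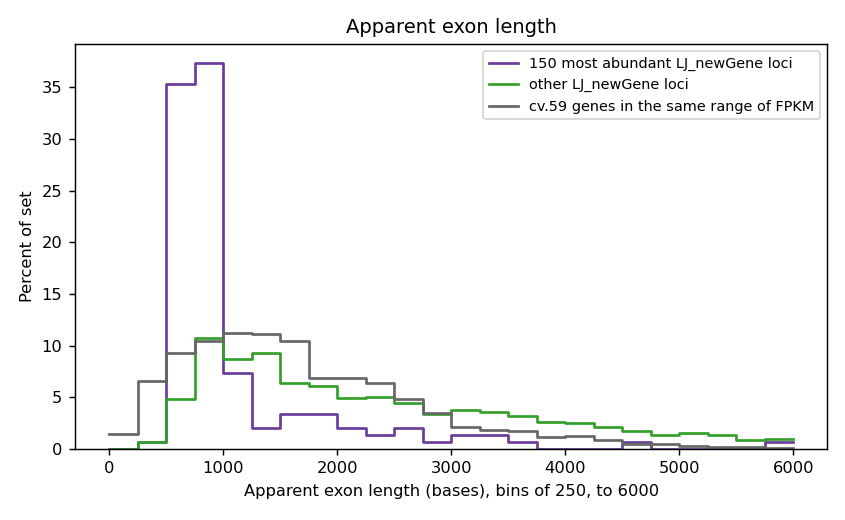
Distribution of the apparent exon length in bins of 250 bases, as percent of each set, for the 150 most abundant LJ_newGene loci (purple), the other LJ_newGene loci (green) and cv.59 genes of similar mean FPKM (grey). The medians were 803, 2169 and 1497 bases. The purple line peaks below 1000 bases, where 73.3% of these loci lie.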

How the data were processed

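RNA extracted from the first branch site, polyadenylated RNA per the labels, was sequenced as paired reads, and the authors aligned them to the C. annuum cv.59 genome with HISAT2. StringTie is also named in the submitters' processing notes. The program that counted reads, its use of strand and its handling of reads with several positions are not given in the sources used here. The authors deposited whole-number counts per feature, without normalization, and FPKM, which the authors scaled to exon length and mapped reads. Columns of the authors' own comparison (fold changes, p-values, adjusted p-values and a call) were not used.

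All 6 libraries were used and assigned by the names in the table. The quasi-likelihood test of edgeR 4.0.16 (R 4.3.3) was applied to the counts (default expression filter, TMM scaling, accession as the only term, Benjamini-Hochberg adjustment). The filter kept 24738 of 24829 features. Standard errors were the log2 fold change over the square root of F. A call needed an adjusted p up to 0.05 and a log2 fold change, B010 over B003, of 1 or more in either direction. Alternatives used DESeq2 1.42.0, limma 3.58.1 on log2(FPKM + 1) or log2(FPKM + 0.1), other scaling, filters, fold limits and selections, a replicate block, and fits without each library. The edgeR, DESeq2 and limma fits were tested on simulated data.

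The loci and comparisons were chosen with earlier results of these data known. Named loci are the 10 most abundant, per direction the 6 called with the smallest p and no overlap, loci detected in 1 accession only, the 4 steadiest of the 50 most abundant, 4 with the widest replicates, 3 at the limit of the list, and 3 pairs of consecutive numbers. Others were named after their values were seen. Below 3 counts, or 0.0632 to 0.109 CPM, a level cannot be told from 0, and this floor covers counting error only. Libraries of one accession differed by more than sampling noise, so none was counted as deposited again.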

Additional observations from a re-analysis of the deposited data

How the results depend on the processing

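The count of 35 called loci (10 higher in B010, 25 in B003) depended on the limits and on how the list was drawn. No fold limit gave 73 (17 and 56), and a log2 fold change of 2 or more in either direction gave 14 (5 and 9). With 1 library left out, these 2 counts ran from 33 to 88 and from 6 to 18. Ranking by the lower accession mean gave 21 (4 and 17), by mean CPM 42 (25 and 17), the first 100 loci 26 (5 and 21), and 300 loci 60 (27 and 33). Among the 114 loci at the limit in both accessions, a choice made after seeing the data, there were 19 (3 and 16). Leaving out 1 library gave 23 to 42 loci, 3 to 13 of them higher in B010, and 534 to 1238 cv.59 genes of similar level against 1042. Of the 35, 20 were called in all 6 of these fits, 3 higher in B010 and 17 in B003, 4 were lost in 1 fit and 11 in more. Detection in 1 accession at up to 1% of the CPM of the other gave 2 loci in place of 1. By summed FPKM the shares were 3.36% and 3.73% in place of 2.16% and 2.34%. Other scaling factors, filters, limma on FPKM and DESeq2 gave 33 to 40. No named locus that was called changed sign in any fit that was run. The log2 fold change of 7 uncalled named loci, at most 0.13 in size, did, and was at most 0.17 in size afterwards. Deviations of same-numbered libraries correlated at 0.00942, 0.12 and 0.226, and those of differently numbered libraries at -0.214 to 0.125. These ranges overlap, and the first same-numbered value was too small to take the numbers as pairs. With the replicate block, 36 loci were called (11 and 25), of which 33 were among the 35. LJ_newGene_645 (edgeR adjusted p = 0.0595) and LJ_newGene_6905, under the fold limit, were lost and 3 were gained. Depth limits only the few loci with under 100 counts in a library.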

Other observations

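Across all LJ_newGene loci, direction went with length. Of the 676 less abundant loci with an apparent length of at least 4000 bases, 24.1% were called toward B010 and 10.5% toward B003. Of the 482 under 1000 bases, 19.5% and 19.7% were. Over all cv.59 genes the long ones had 7.02% and 8.1%, and those under 1000 bases 13.0% and 14.3%. The long loci remained more often higher in B010 with each library left out, between 125 and 57 loci without B010 replicate 1 and 184 and 78 without B003 replicate 1. When the 150 loci were ranked by mean CPM, 80 entered that are not in the FPKM list, with a median apparent length of 5828 bases and a median FPKM of 14.3. Of these 80, 20 were called toward B010 and 2 toward B003. The lean of the calls to B003 therefore held for the first 150 loci by FPKM and turned to B010 for the first 150 by CPM. It also depended on the length of the list. Among the first 300 loci by FPKM it was smaller, with 27 called toward B010 and 33 toward B003. The split by length was chosen after seeing the data, and the difference between the classes was not tested.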
